A study of Sus scrofa with 2 samples.

Results

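RTP1, RTP2 and RIC8B were followed as the 3 genes that carry odorant receptors and their G protein to a working state, by taking the row of each symbol in both deposited count tables. Each symbol had 1 row, so the members were 3 of 25880 listed genes, and all of them had UMIs in both libraries. The tables came from single-nucleus RNA sequencing of frozen olfactory neuroepithelium of newborn pigs, with 1 library for the wild type and 1 for the CFTR knockout. CFTR encodes the chloride channel that is lost in cystic fibrosis. The CFTR-null tissue and the control tissue were handled alike per the labels' protocols: frozen, sectioned in a cryostat and ground in a citric acid buffer before the nuclei were captured in droplets. The labels do not say how the CFTR gene was inactivated, nor how many piglets gave tissue to a library or whether they were littermates.

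Most odorant receptors are retained in the endoplasmic reticulum when they are made in cells that lack helper proteins. RTP1 and RTP2, the receptor transporting proteins, are small membrane-anchored proteins that help these receptors to leave the endoplasmic reticulum and reach the surface of the cilia of olfactory sensory neurons. RIC8B acts on the G protein that the receptors engage: it is a chaperone and exchange factor for the stimulatory G protein alpha subunits, among them the olfactory subunit encoded by GNAL, through which odorant receptors activate adenylyl cyclase. Olfactory neurons are renewed throughout life from basal precursors, pass through an immature stage marked by GAP43, and express their transduction genes once mature.

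After filtering, 4536 wild type nuclei with a median of 2966 UMIs (unique molecular identifiers, 1 per captured transcript) and 5761 knockout nuclei with a median of 2093 UMIs remained. CFTR stood at 88.9 CPM (UMIs of a gene divided by all UMIs of the nuclei and scaled to 1e6; 95% interval 84.5 to 93.5) in the wild type and at 12.7 CPM (10.96 to 14.6) in the knockout library. Mitochondrial transcripts made up 2.83% and 1.31% of the UMIs. Of 23 clusters, 3 stayed unnamed, among them clusters 5 and 15, whose 212 wild type and 952 knockout nuclei were shallow, with medians of 760 and 534 UMIs. Names carry "-like" because they rest on fixed marker genes. The mature neuron-like class (1013 wild type and 941 knockout nuclei) had 7 markers in each of its clusters, the cyclic nucleotide-gated channel subunit CNGA4 and the G protein subunit GNG13 among them. The immature neuron-like class (786 and 531 nuclei) joined cluster 9, with GAP43, and cluster 4, with TEX15 and PURG. The fibroblast markers were shared by clusters 14 and 18, which are given by number. Because there was 1 library per genotype, no difference was tested and none has a replicate check: ratios compare these libraries, not the genotypes. Intervals are exact 95% intervals and cover counting error only. CPM were not divided by gene length, so that levels are compared within a gene and never between genes.

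The 3 genes differed in how strongly they were concentrated in neurons. RTP1 had 370 UMIs in the wild type and 217 in the knockout library, of which 47.6% (42.4 to 52.8) and 34.1% (27.8 to 40.8) lay in mature neuron-like nuclei. RTP2 had 242 and 134 UMIs, with 52.9% (46.4 to 59.3) and 56.0% (47.1 to 64.5) in those nuclei. RIC8B had 13269 and 9613 UMIs, with 72.5% (71.8 to 73.3) and 62.3% (61.3 to 63.2) there. These nuclei held 25.5% of all wild type UMIs and 19.6% of all knockout UMIs, so each gene was over-represented in them. Immature neuron-like nuclei added 19.7% and 17.1% of the RTP1 UMIs, 35.5% and 20.9% of the RTP2 UMIs, and 16.5% and 10.4% of the RIC8B UMIs. The RTP2 counts were too few to resolve single non-neuronal classes, and the RTP1 counts nearly so, whereas RIC8B could be read in every class.

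RTP1 had a level of 40.3 CPM (34.6 to 46.7, 176 UMIs) in wild type and 24.9 CPM (19.6 to 31.3, 74 UMIs) in knockout mature neuron-like nuclei. In immature neuron-like nuclei it stood at 17.3 CPM (13.6 to 21.7) and 19.8 CPM (13.9 to 27.3), and in precursor-like nuclei at 7.74 CPM (3.11 to 15.9) and 4.98 CPM (1.03 to 14.6). The order mature, immature, precursor thus held in both libraries, but in the knockout library the intervals of mature and immature nuclei overlapped, and the precursor levels were no higher than those outside neurons given below for both libraries. The highest RTP1 level was not in a named class: the shallow unnamed nuclei had 73.2 CPM (41.0 to 121, 15 UMIs) in the wild type library and 65.7 CPM (46.5 to 90.2, 38 UMIs) in the other. In those nuclei mitochondrial transcripts were 19.7% and 3.73% of the UMIs, and how far this bears on their RTP1 level was not tested.

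RTP2 had a level of 29.3 CPM (24.4 to 34.8, 128 UMIs) in wild type and 25.3 CPM (19.9 to 31.7, 75 UMIs) in knockout mature neuron-like nuclei. Immature neuron-like nuclei had 20.4 CPM (16.3 to 25.2) and 15.0 CPM (9.95 to 21.6), and precursor-like nuclei 6.63 CPM (2.44 to 14.4) and 3.32 CPM (0.402 to 12.0). RTP2 was thus ordered over the lineage as RTP1 was, with overlapping intervals of mature and immature nuclei in both libraries. The shallow unnamed nuclei had 19.5 CPM (5.32 to 50.0) and 19.02 CPM (9.50 to 34.0), with intervals that overlapped those of mature neurons.

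RIC8B had a level of 2203 CPM (2160 to 2248, 9625 UMIs) in wild type and 2017 CPM (1966 to 2068, 5985 UMIs) in knockout mature neuron-like nuclei. Immature neuron-like nuclei had 518 CPM (496 to 540) and 535 CPM (502 to 569), and precursor-like nuclei 317 CPM (282 to 356) and 304 CPM (261 to 351). In this gene the 3 stages did not overlap in either library. The shallow nuclei had 268 CPM (202 to 349) and 285 CPM (243 to 332), near the precursor level.

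**Figure D1:**
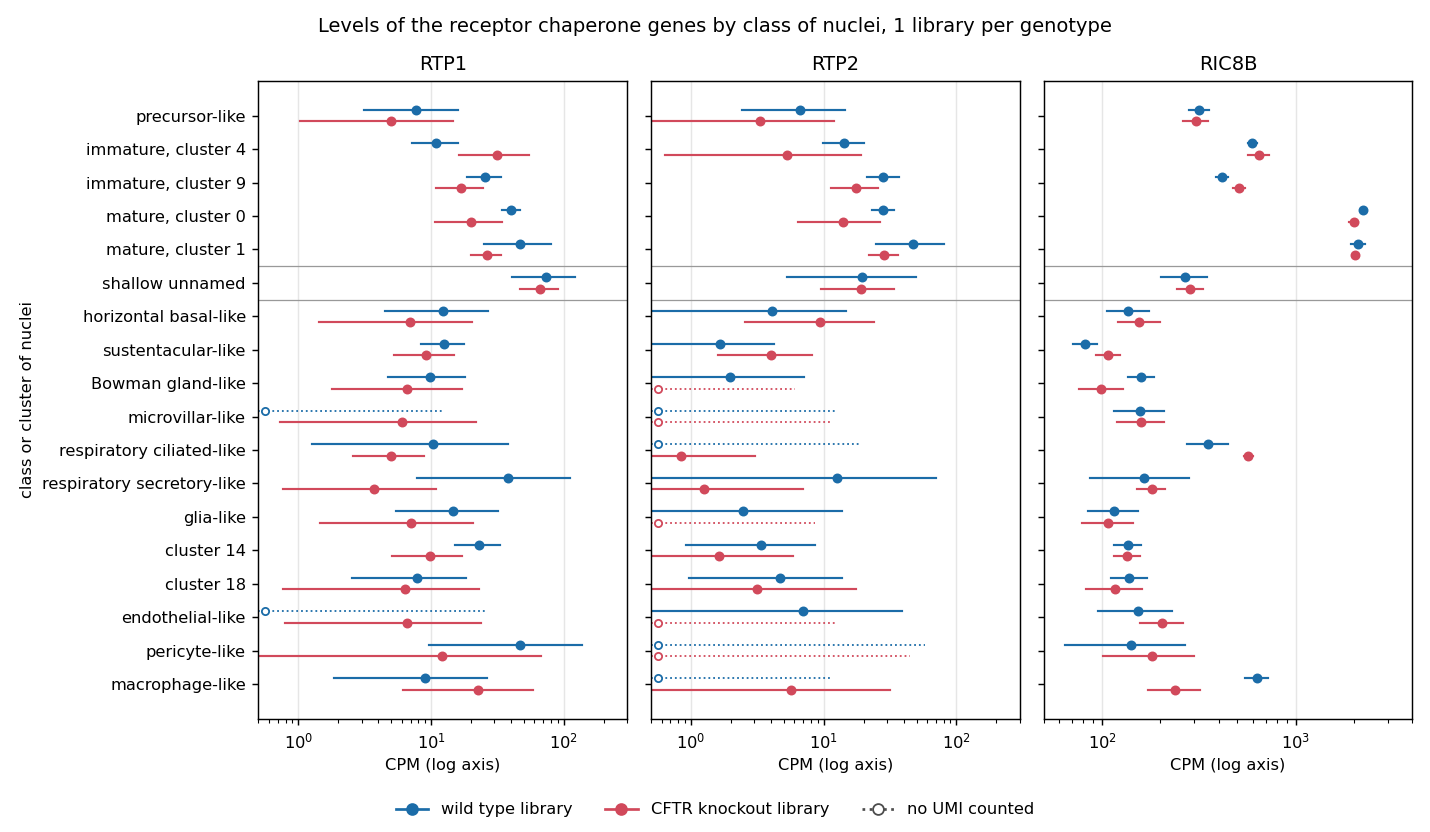
Levels in CPM (log axis) of RTP1, RTP2 and RIC8B in each class or cluster of nuclei, with a point per library and exact Poisson 95% intervals; open points with dotted lines mark classes with no UMI, and lines that meet the left edge run on below the axis. RIC8B lies between 1990 and 2210 CPM in the mature clusters 0 and 1, to the right of all other classes. RTP1 lies at 73.2 and 65.7 CPM in the shallow unnamed nuclei. In clusters 0 and 1 it lies at 39.8 and 46.9 CPM in the wild type and at 20.1 and 26.3 CPM in the knockout library.

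In single nuclei the 2 receptor transporting proteins were sparse and RIC8B was not. Among mature neuron-like nuclei, 94.5% in the wild type library and 91.2% in the other had at least 1 RIC8B UMI, with a median of 7 UMIs (quartiles 3 and 13) and 5 UMIs (2 and 9) per nucleus. RTP1 was seen in 15.3% and 7.12% and RTP2 in 11.6% and 7.33% of these nuclei, whose median depths were 3867 and 2870 UMIs. When each nucleus was thinned to 1000 UMIs, which left out 28 wild type and 36 knockout nuclei, the shares were 79.5% (76.8 to 82.0) and 76.5% (73.6 to 79.2) for RIC8B, 3.76% (2.66 to 5.14) and 3.09% (2.07 to 4.44) for RTP1, and 2.64% (1.73 to 3.84) and 1.99% (1.18 to 3.13) for RTP2. At equal depth the intervals of these shares overlapped between the libraries for each gene. The same shares over the named non-neuronal nuclei (166 and 344 left out) were 10.3% and 16.7% for RIC8B, 0.932% and 1.03% for RTP1, and 0.326% and 0.213% for RTP2.

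Outside neurons, RTP1 and RTP2 were set against the genes that define mature neurons. Free RNA in droplets gives UMIs in cells that do not express a gene, and medians of depth in the named non-neuronal nuclei were 2475 and 2198 UMIs. RTP1 stood there at 13.05 CPM (10.6 to 15.9) and 7.25 CPM (5.59 to 9.24), which was 32.4% (25.0 to 41.8) and 29.1% (20.5 to 41.1) of its own level in mature neuron-like nuclei. RTP2 stood at 2.47 CPM (1.46 to 3.91) and 2.01 CPM (1.19 to 3.17), or 8.44% (4.85 to 13.9) and 7.94% (4.47 to 13.4) of its mature level. The 8 mature neuron markers measured the same way ran from 2.28% for KIRREL2, an adhesion molecule of olfactory axons, to 36.1% for the calcium-binding protein S100A5 in the wild type library, and from 1.71% to 49.1% for the same genes in the knockout library. The markers were all detected in these nuclei, with a summed level of 619 CPM (602 to 638) and 695 CPM (678 to 712). RTP1 and RTP2 both lay within the range of these markers, but that range is too wide to tell free RNA from expression. In the wild type library only S100A5 lay above RTP1, and STOML3 came next below at 22.0% (20.5 to 23.5). In the knockout library CNGA2, GNG13, STOML3 and S100A5 lay above RTP1. The source of the RTP1 and RTP2 UMIs outside neurons was not tested, and they are not read as expression there. RIC8B, at 6.81% and 12.5%, lay within that range too, and the same limit holds for its levels in the non-neuronal classes. The 2 genes did not keep 1 ratio of counts, however: RTP1 and RTP2 had 176 and 128 UMIs in wild type mature neurons, 95 and 18 in the wild type named non-neuronal nuclei and 15 and 4 in the shallow ones, and in the knockout library 74 and 75, 65 and 18, and 38 and 11. The origin of the additional RTP1 UMIs was not tested. In immature neuron-like nuclei RTP1 was above its level outside neurons by a log2 ratio of 0.41 (-0.05 to 0.86) in the wild type library, which leaves them unseparated, and by 1.45 (0.82 to 2.05) in the knockout library. RTP2 was above by 3.04 (2.30 to 3.86) and 2.90 (1.99 to 3.84). RTP2 had no UMI in the microvillar-like and pericyte-like nuclei of either library, where the limit that a count of 0 allows, taken as 3 UMIs, is 10.0 CPM in wild type and 8.99 CPM in knockout microvillar-like nuclei. In the pericyte-like nuclei that limit is 46.9 and 36.1 CPM, above the level of RTP2 in mature neurons, so its absence there was not detectable at this depth.

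**Figure D2:**
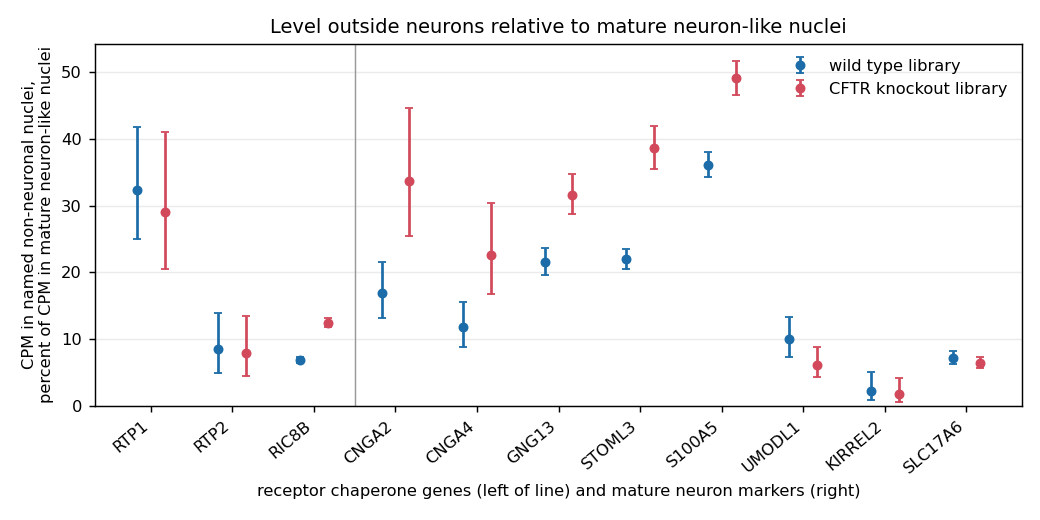
Level in named non-neuronal nuclei as a percentage of the level in mature neuron-like nuclei, for the 3 members (left of the line) and 8 mature neuron markers (right), with 95% intervals from the exact conditional binomial interval of each ratio. RTP1 sits at 32.4% and 29.1%, among the more widely spread neuronal markers, RTP2 at 8.44% and 7.94%, and RIC8B is the member whose percentage is higher in the knockout library, 12.5% against 6.81%.

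RIC8B had UMIs in every non-neuronal class. Its level over all named non-neuronal nuclei was 150 CPM (141 to 159) in the wild type library and 252 CPM (241 to 262) in the other, a log2 ratio of 0.74 (0.64 to 0.85). Respiratory ciliated-like nuclei, from cells that carry motile cilia, held a large part of it: 68 UMIs in 32 wild type nuclei, or 354 CPM (275 to 449), and 1361 UMIs in 465 knockout nuclei, or 569 CPM (539 to 600). Without the ciliated nuclei the libraries stood at 145 CPM (136 to 154) and 136 CPM (127 to 145), so the difference over the non-neuronal nuclei was present with the ciliated nuclei and not without them. In the wild type library 5 of the 32 ciliated-like nuclei held 39.7% of their RIC8B UMIs, the mitochondrial share was 10.6% against 2.17% in the knockout library, and 33.3% of all genes tested in these nuclei were at least 1.5-fold higher in the knockout library. The part of these in the RIC8B difference was not tested. The knockout ciliated-like interval overlapped that of the immature neuron-like class (502 to 569). The mature neuron markers in the ciliated-like nuclei summed to 401 CPM (317 to 501) in the wild type library and 422 CPM (397 to 449) in the other. Over all named non-neuronal nuclei they summed to 619 and 695 CPM. KIRREL2 was at 0 in the ciliated-like nuclei of both libraries. The source of the RIC8B UMIs in these nuclei was not tested. RTP1 had 2 and 12 UMIs and RTP2 0 and 2 UMIs in the ciliated-like nuclei.

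Macrophage-like nuclei had 629 CPM of RIC8B (547 to 720, 210 UMIs) in the wild type library and 238 CPM (172 to 322, 42 UMIs) in the other. Of the 80 wild type nuclei, 5 held 62.4% of these UMIs, and without them the level was 342 CPM (270 to 426), against 159 CPM (103 to 234) without the 5 highest knockout nuclei. The summed mature neuron markers stood at 791 CPM (698 to 892) in wild type macrophage-like nuclei, with 7 of 8 detected and KIRREL2 at 0, and at 1078 CPM (930 to 1242) in those of the knockout library, with 6 of 8 detected and CNGA2 and KIRREL2 at 0. The 9 immature markers summed to 1165 CPM (1052 to 1287) and 749 CPM (626 to 888), with CRMP1 at 0 in the knockout library. The part of these neuronal transcripts in the RIC8B level was not tested. The remaining classes lay low and close together: from 82.0 CPM (70.9 to 94.2) in sustentacular-like support cells to 164 CPM (87.2 to 280) in respiratory secretory-like nuclei in the wild type library, leaving aside cartilage-like nuclei, of which it had 4, and from 99.3 CPM (75.8 to 128) in Bowman gland-like nuclei to 204 CPM (157 to 262) in endothelial-like nuclei in the knockout library. The wild type intervals overlapped each other, apart from the sustentacular-like nuclei, whose interval lay below some of them. In the knockout library the lowest and highest intervals did not overlap.

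The comparison of mature with immature neuron-like nuclei asks at which stage of neuronal maturation each gene is higher. The genes behind the clusters did not include the 3 members, but nuclei of 1 library are not replicates, and the ratios describe each library. RIC8B was higher in mature nuclei by a log2 ratio of 2.09 (2.02 to 2.16) in the wild type library and 1.91 (1.82 to 2.01) in the other, that is 4.25-fold and 3.77-fold. RTP1 was higher by 1.22 (0.82 to 1.63) in the wild type library, and its ratio in the knockout library, 0.33 (-0.25 to 0.94), did not separate the stages. RTP2 was higher by 0.52 (0.12 to 0.94) and 0.76 (0.11 to 1.44). Of all genes with at least 20 UMIs over the nuclei compared, 6.56% in the wild type and 6.72% in the knockout library were at least 2-fold higher in mature nuclei. RIC8B passed that fold in both libraries, RTP1 in the wild type library alone and RTP2 in neither, and whether the libraries differ in this was not tested. In wild type nuclei of 2500 to 5000 UMIs the RTP1 ratio was 0.57 (-0.05 to 1.21), so that its separation was lost. The wild type RTP2 ratio lost its separation there too, at 0.42 (-0.21 to 1.06), and also after thinning to 1000 UMIs (0.016, -0.88 to 0.93), without doublet removal (0.22, -0.20 to 0.65), at 500 genes per nucleus (0.37, -0.03 to 0.78), at resolution 2 (0.29, -0.13 to 0.71) and with each library clustered on its own (0.23, -0.19 to 0.65). The knockout RTP2 ratio lost it after thinning (1.35, -0.25 to 3.37) and at 1000 UMIs per nucleus (0.59, -0.01 to 1.22), and was 1.21 (0.24 to 2.31) at 2500 to 5000 UMIs. Scaling by size factors or TMM raised the wild type ratios, to 1.33 or 1.36 for RTP1, 0.63 or 0.66 for RTP2 and 2.20 or 2.23 for RIC8B.

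In the wild type library the immature class hid opposite differences between its clusters. From cluster 4 to cluster 9, the nuclei with GAP43, the wild type level of RTP1 went from 10.95 CPM (7.15 to 16.0) to 25.4 CPM (18.7 to 33.8) and that of RTP2 from 14.3 CPM (9.92 to 20.0) to 28.2 CPM (21.0 to 36.9). RIC8B went the other way, from 597 CPM (566 to 629) to 416 CPM (387 to 447), a log2 ratio of -0.52 (-0.65 to -0.39). The knockout library had the same direction for RIC8B, with 644 CPM (566 to 730) in cluster 4 and 507 CPM (472 to 545) in cluster 9. For RTP1 the knockout library had the opposite order, 31.5 CPM (16.3 to 55.1, 12 UMIs) and 16.8 CPM (10.9 to 24.8, 25 UMIs), with overlapping intervals. Knockout RTP2 rested on 2 UMIs in cluster 4 and gave 17.4 CPM (11.4 to 25.6) in cluster 9. Levels in the immature class also went with depth. From over 5000 to under 2500 UMIs, wild type RTP1 went from 11.7 CPM (7.87 to 16.6) to 32.1 CPM (15.4 to 59.0). Wild type RIC8B went from 593 CPM (564 to 624) to 404 CPM (336 to 481), and knockout RIC8B from 661 to 389 CPM. The RTP1 intervals overlapped in both libraries. The part of depth in the differences between clusters 4 and 9 was not tested.

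At the last step, from cluster 9 to mature neuron-like nuclei, RIC8B had the largest ratios of the 3 genes in both libraries. RTP2 stood at 28.2 CPM in wild type cluster 9 and 29.3 CPM in mature nuclei, a log2 ratio of 0.06 (-0.42 to 0.55), and at 17.4 and 25.3 CPM in the knockout library, a ratio of 0.53 (-0.13 to 1.24). RTP1 was higher in the mature nuclei by 0.66 (0.19 to 1.16) in the wild type library and 0.57 (-0.10 to 1.29) in the other. In each library the interval of the RTP1 ratio overlapped that of the RTP2 ratio. RIC8B was higher by 2.40 (2.30 to 2.51) and 1.99 (1.88 to 2.10).

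When the 1979 wild type and 1590 knockout nuclei of the lineage were put in order by diffusion pseudotime and divided into 10 bins per library, RIC8B in the wild type library stayed between 561 and 612 CPM over the first 4 bins, was at 1005 CPM in the fifth, and lay between 1698 and 2158 CPM in the last 5. The knockout library went from 447 CPM in the first bin through 1239 CPM in the fifth to 2391 CPM in the ninth. In both libraries the first bin lay above the RIC8B level of precursor-like nuclei (317 CPM in wild type, 304 CPM in knockout). The first bin is therefore not read as the precursor stage alone. RTP1 was highest in the middle: in the wild type library it went from 9.41 CPM in the first bin to 49.9 CPM (35.9 to 67.4) in the seventh, and was 12.3 CPM (6.34 to 21.4, 12 UMIs) in the last. That last bin held 34.0% immature neuron-like nuclei, against 10.1% in the ninth, so it is not purely the end of the lineage. In the knockout library RTP1 lay between 23.0 and 30.9 CPM in the last 6 bins and had 26.7 CPM (15.2 to 43.3) in the last. RTP2 had 9.96 CPM in the first wild type bin and between 20.8 and 34.0 CPM in the other bins, whose intervals all overlapped. Over the last 3 against the first 3 bins the log2 ratio was 0.93 (0.38 to 1.49) and 1.16 (0.40 to 1.94) for RTP1, 0.63 (0.12 to 1.14) and 1.25 (0.47 to 2.06) for RTP2, and 1.87 (1.79 to 1.94) and 2.32 (2.21 to 2.42) for RIC8B, in the wild type and the knockout library. When nuclei were ordered by the difference of mature and immature markers instead, the ratios were 0.83 (0.32 to 1.36) and 0.40 (-0.34 to 1.15) for RTP1, 0.54 (-0.01 to 1.08) and 0.78 (0.01 to 1.55) for RTP2, and 2.39 (2.30 to 2.47) and 1.90 (1.80 to 2.01) for RIC8B, so knockout RTP1 and wild type RTP2 lost their separation. Spearman's rho between both orders was 0.47 over the wild type and 0.55 over the knockout nuclei.

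**Figure D3:**
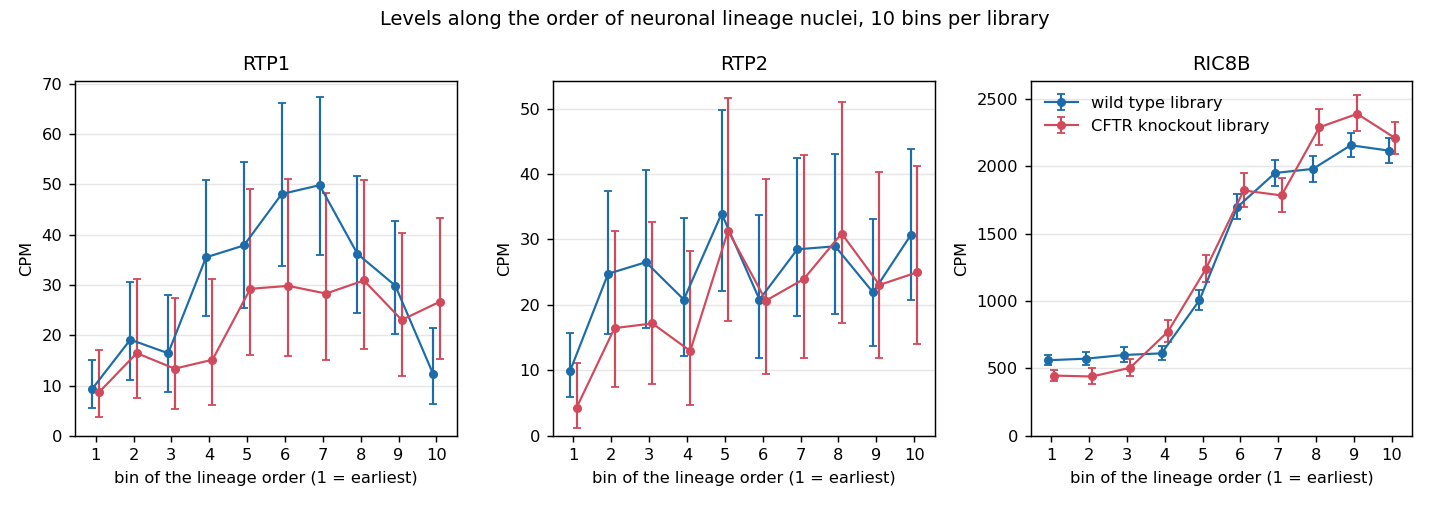
Level in CPM against the bin of the lineage order (10 bins of equal numbers of nuclei per library, 1 is the earliest), with exact Poisson 95% intervals and a line per library. RIC8B goes from 561 to 2118 CPM and from 447 to 2211 CPM between the first and last bins, RTP1 peaks at 49.9 CPM in the seventh wild type bin, and RTP2 stays between 20.8 and 34.0 CPM in the wild type library after the first bin.

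The mature neuron-like class joined clusters 0 and 1, which differed in genes that mark zones of the epithelium. These clusters came from the 2000 variable genes and were not cut by the zone genes. Their ratios are therefore not a contrast of zones alone. Cluster 0, higher in the ventral adhesion gene NCAM2, held 914 wild type and 154 knockout nuclei, and cluster 1, higher in the dorsal enzyme gene NQO1, held 99 and 787, so cluster and library were largely shared. RIC8B had 2210 CPM (2165 to 2256) and 2101 CPM (1934 to 2279) in wild type clusters 0 and 1, and 1990 CPM (1882 to 2101) and 2024 CPM (1967 to 2083) in the knockout clusters, with overlapping intervals in each library. RTP1 had 39.8 and 46.9 CPM in the wild type library, then 20.1 and 26.3 CPM in the other, with log2 ratios of cluster 1 over cluster 0 of 0.23 (-0.71 to 1.05) and 0.38 (-0.50 to 1.37). RTP2 had 28.1 and 46.9 CPM in the wild type library, then 13.9 and 28.4 CPM in the other, with ratios of 0.74 (-0.22 to 1.57) and 1.03 (0.02 to 2.22). The smaller cluster of each library had 13 UMIs or fewer of RTP1 and of RTP2.

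When single nuclei were sorted by NQO1 and NCAM2 UMIs instead, the wild type RIC8B levels parted. The 91 nuclei with NQO1 and at most 1 NCAM2 UMI had 2567 CPM (2405 to 2737), and the 538 nuclei with at least 2 NCAM2 and no NQO1 UMIs had 2217 CPM (2160 to 2275). In the knockout library the same sorting gave 2153 CPM (2052 to 2258) in 246 nuclei and 2135 CPM (2018 to 2257) in 140, so the intervals overlapped there. RTP1 had 41.1 and 34.5 CPM in these wild type nuclei and 36.8 and 20.6 CPM in the knockout ones, and RTP2 had 38.4 and 31.0 CPM, then 27.9 and 20.6 CPM, all with overlapping intervals between the sorted nuclei of a library. This sorting was chosen after the data were seen.

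Depth within the mature class moved with the level of RTP1 and RIC8B, in opposite directions. Wild type nuclei with under 2500 UMIs had 88.4 CPM of RTP1 (60.1 to 125, 31 UMIs), against 36.6 CPM (28.5 to 46.3) at 2500 to 5000 UMIs and 35.6 CPM (28.1 to 44.6) above. The knockout nuclei had 34.4 CPM (21.6 to 52.2), 23.7 CPM (16.8 to 32.5) and 19.3 CPM (10.5 to 32.4), with overlapping intervals. RIC8B went from 1882 CPM (1741 to 2032) through 2126 CPM to 2325 CPM (2260 to 2390) in the wild type and from 1665 CPM (1566 to 1768) through 2036 CPM to 2284 CPM (2175 to 2396) in the knockout library. RTP2 showed no such order, with 20.0, 33.9 and 26.7 CPM and with 20.4, 28.7 and 22.0 CPM.

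RTP1 and RTP2 were seen together in few nuclei. Among wild type mature neuron-like nuclei of 2500 to 5000 UMIs, 4 of the 61 with RTP1 also had RTP2, 6.56% (1.82 to 15.9), against 58 of the 452 without RTP1, 12.8% (9.89 to 16.3). In the knockout library the shares were 3 of 35, 8.57% (1.80 to 23.1), and 39 of 422, 9.24% (6.65 to 12.4). The intervals overlapped in each library, so neither shared nor exclusive detection could be seen at this depth. RIC8B was present in 95.1% of wild type nuclei with RTP1 and 96.0% without, and in 93.5% with RTP2 and 96.2% without, and the knockout library had 91.4% with RTP1 and 98.3% without, with overlapping intervals. An odorant receptor gene with a symbol (98 rows) gave a UMI in 40 wild type and 45 knockout mature neuron-like nuclei. In these nuclei RIC8B had 2174 CPM (1973 to 2389) and 1839 CPM (1639 to 2056), against 2205 CPM and 2027 CPM in the others, and RTP1 and RTP2 had 7 UMIs or fewer per library.

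Between the libraries, RTP1 was lower in the knockout library over mature neuron-like nuclei, at 24.9 against 40.3 CPM, a log2 ratio of -0.69 (-1.10 to -0.29) or 0.619 of the wild type level. RTP2 had 25.3 against 29.3 CPM, and its ratio of -0.21 (-0.64 to 0.21) left the libraries unseparated. RIC8B had 2017 against 2203 CPM, a ratio of -0.13 (-0.17 to -0.08). It was -0.06 (-0.13 to 0.00) among nuclei of 2500 to 5000 UMIs and -0.05 (-0.18 to 0.07) within cluster 1. Other settings took the RIC8B ratio further from 0, to -0.20 (-0.29 to -0.11) after thinning and -0.29 (-0.34 to -0.25) with each library clustered on its own. Of all genes with at least 20 UMIs in the class, 9.12% were at least 1.5-fold lower and 12.0% at least 1.5-fold higher in the knockout library, and RTP1 was the member past that fold. With the shallow unnamed clusters counted as mature, the RTP1 ratio was -0.40 (-0.75 to -0.06), no longer past that fold. RTP1 was lower within both mature clusters, by -0.99 (-1.93 to -0.17) in cluster 0 and -0.83 (-1.71 to 0.15) in cluster 1. RTP2 was at -1.01 (-2.18 to -0.04) and -0.72 (-1.59 to 0.26) within them, further below 0 than over the whole class. Most wild type nuclei lay in cluster 0 and most knockout nuclei in cluster 1, where RTP2 was higher in both libraries. Beside these values, the mitochondrial share of UMIs in mature neuron-like nuclei was 2.84% (wild type library) and 0.835% (knockout library), and the median depths were 3867 and 2870 UMIs. Their part in the RTP1 difference was not tested. After thinning every nucleus to 1000 UMIs the RTP1 ratio was -0.28 (-1.04 to 0.47), so the separation was lost. The random draw behind the thinning was not repeated. Of the alternatives for this ratio, 14 stayed within its interval and 1, the thinning, moved outside it. With nuclei weighted equally, size factors or TMM, the RTP1 ratio was -0.82, -0.76 or -0.79, without intervals. Among nuclei of 2500 to 5000 UMIs it was -0.63 (-1.24 to -0.04).

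RTP1 was also lower in the knockout library outside neurons: over the named non-neuronal nuclei it had 13.05 and 7.25 CPM, a log2 ratio of -0.85 (-1.33 to -0.38), whose interval overlapped that of the ratio in mature neurons. In immature neuron-like nuclei the members did not separate the libraries as classified here, with 0.19 (-0.42 to 0.78) for RTP1, -0.45 (-1.12 to 0.19) for RTP2 and 0.05 (-0.06 to 0.16) for RIC8B. There, 9.82% of genes were at least 1.5-fold higher and 16.6% at least 1.5-fold lower, and no member passed that fold. Within the class, RTP1 in cluster 4 was higher in the knockout library, by 1.53 (0.40 to 2.56) from 26 and 12 UMIs, and RIC8B in cluster 9 by 0.28 (0.14 to 0.43). RTP2 did separate them without doublet removal (-0.77, -1.43 to -0.14), at 500 genes per nucleus (-0.75, -1.45 to -0.11), at resolution 2 (-0.72, -1.37 to -0.11), with each library clustered on its own (-0.93, -1.63 to -0.28) and after thinning (-1.74, -3.75 to -0.16), all past the 1.5-fold mark. The RIC8B value of the immature class depended on how nuclei were assigned to it: it was -0.25 (-0.35 to -0.15) at the coarser clustering resolution of 0.5 and -0.59 (-0.70 to -0.48) when each library was clustered on its own. In precursor-like nuclei RIC8B had a ratio of -0.06 (-0.34 to 0.21), and the other members had 7 UMIs or fewer per library.

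Over all nuclei, each member was lower in the knockout library: 14.3 against 21.6 CPM for RTP1 (log2 ratio -0.59, -0.84 to -0.34), 8.86 against 14.1 CPM for RTP2 (-0.67, -0.99 to -0.36) and 636 against 775 CPM for RIC8B (-0.29, -0.32 to -0.25). Genes at least 1.5-fold lower were 8.46% of all tested and genes at least 1.5-fold higher 15.9%, and RTP1 and RTP2 passed the lower fold. In these sums alone, fewer nuclei of a type and fewer transcripts per nucleus cannot be told apart. When the knockout levels of each cluster were weighted by the wild type shares of clusters, the ratio was -0.46 for RTP1, -0.88 for RTP2 and -0.08 for RIC8B.

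**Figure D4:**
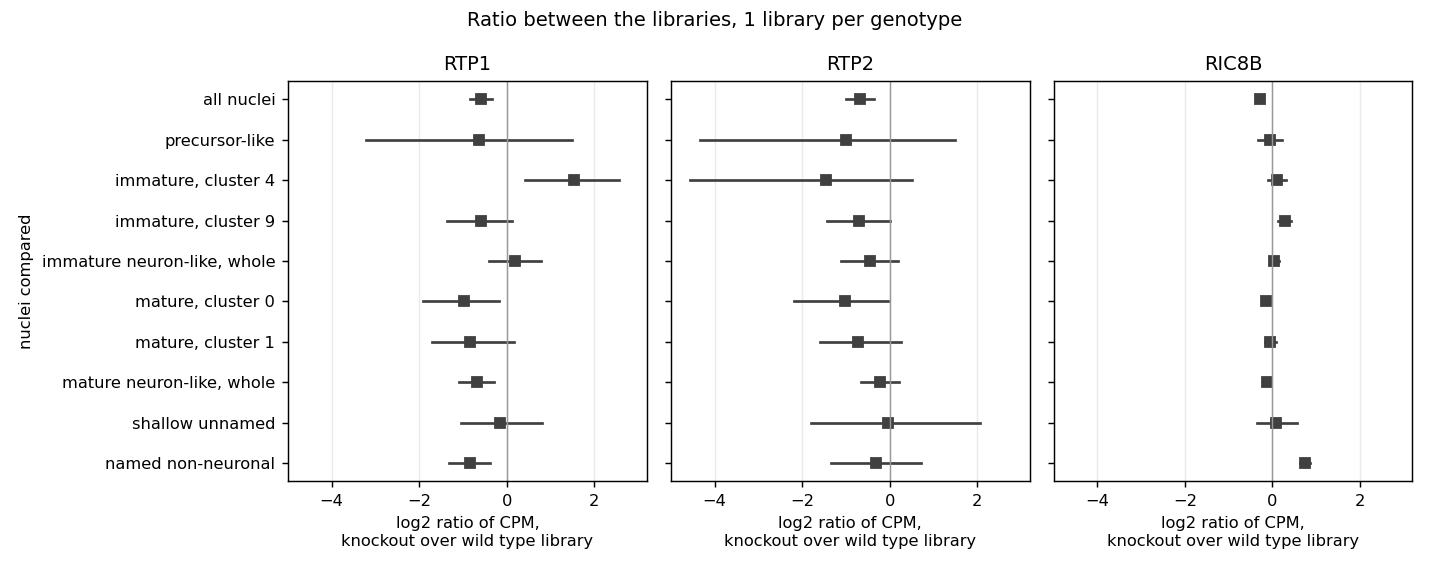
Log2 ratio of CPM, knockout over wild type library, for each member in the nuclei named at the left, with exact conditional binomial 95% intervals; the line at 0 marks equal levels. RTP1 lies at -0.69 in mature neuron-like and at -0.85 in non-neuronal nuclei, the RTP2 intervals include 0 except for all nuclei together and cluster 0, and RIC8B lies between -0.29 and 0.28 in all but the non-neuronal nuclei (0.74).

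Other genes of the odorant receptor pathway were read from 7 fixed lists, in each of which the 3 members with the most UMIs are named. The classes were built from genes that include some of these, and CNGA2, CNGA4, GNG13, STOML3 and GNG8 are also class markers, so the counts for maturation are a description. Of the odorant signal transduction genes, 7 of 10 measured were at least 2-fold higher in mature than immature neuron-like nuclei in the wild type and 5 of 10 in the knockout library, with a median log2 ratio of 1.64 and 0.94, against -0.11 and -0.02 over all genes tested. PDE1C, a calmodulin-dependent phosphodiesterase of olfactory cilia, had ratios of 2.38 and 2.43. STOML3, a stomatin-like membrane protein of olfactory cilia, had 2.23 and 1.30, and SLC12A2, the cotransporter that loads chloride into the neuron, 0.78 and 0.50. CNGB3, a channel subunit chosen after its value was seen, was the 1 gene of the list at least 2-fold lower, at -4.57 and -2.87.

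Among the G proteins and the Ric8 chaperones without RIC8B, 2 of 8 measured genes were at least 2-fold higher in wild type mature nuclei and 3 lower, and in the knockout library 1 and 2 of 7, beside 6.56% and 15.0% of all genes in the wild type and 6.72% and 7.94% in the knockout comparison. GNAL, the olfactory alpha subunit on which RIC8B acts, had 726 CPM in wild type mature and 163 CPM in wild type immature nuclei, and 698 and 158 CPM in the knockout library. Its ratios of 2.16 and 2.15 were close in size to the 2.09 and 1.91 of RIC8B. GNB1, a beta subunit, had ratios of 0.58 and 0.33, and GNG13, its gamma partner in olfactory cilia, 1.35 and 0.88. RIC8A, the relative of RIC8B that serves other alpha subunits, had 5.72 and 4.03 CPM in the wild type and 5.39 and 8.02 CPM in the knockout library, from 25 UMIs or fewer a value, with ratios of 0.51 and -0.57.

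The relatives of RTP1 and RTP2 behaved less uniformly. RTP3 and RTP4 were not matched by symbol and are not analysed here. REEP1, a receptor expression enhancing protein that was found together with the RTPs, had 213 CPM in wild type mature and 155 CPM in wild type immature nuclei, and 210 and 137 CPM in the knockout library, ratios of 0.46 and 0.61. REEP3 had ratios of -0.51 and -0.31, REEP5 -0.62 and -0.19, and REEP2 0.26 and -0.67. REEP4 was past the 2-fold mark in the wild type library (1.30, from 28 and 11 UMIs) and too low to be measured in the knockout library. REEP6 had 4 UMIs in all wild type and 5 in all knockout nuclei. Without the members, the median of the REEP genes was 0.26 in the wild type and -0.25 in the knockout library.

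In the list of endoplasmic reticulum folding and stress feedback, none of 16 genes in the wild type and 1 of 16 in the knockout library was at least 2-fold higher in mature nuclei, close to the 6.56% and 6.72% of all genes. That 1 gene was NFE2L2, a regulator of the oxidative stress response, at 1.36 and at 0.89 in the wild type library. ATF5, the transcription factor through which receptor expression feeds back on neuron maturation, had 1276 CPM in wild type mature and 716 CPM in wild type immature nuclei (0.83), and 1221 and 864 CPM in the knockout library (0.50). ATF6, a sensor of unfolded protein, had 0.24 and 0.49. The cytosolic heat shock chaperones had none of 7 measured genes past the fold in either library, with HSP90AA1 at -0.06 and -0.41, HSPA8 at 0.56 and -0.08 and DNAJA1 at -0.11 and -0.16.

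Of the genes that regulate the choice of a receptor, 3 of 11 in the wild type and 5 of 11 in the knockout library were at least 2-fold lower in mature nuclei and none higher, against 15.0% and 7.94% of all genes lower. EBF1 had ratios of -0.73 and -1.003, EBF2 -0.09 and -0.20 and EBF4 0.43 and -0.02, all of them olfactory neuron transcription factors. The receptor function modulators had 4 genes measured in the wild type library, of which 3 were at least 2-fold lower, and 1 in the knockout library, so GRK3, ARRB1 and RGS2, which restrain receptor signalling, had values in the wild type library only (-1.64, -1.35 and -1.73, from 48 UMIs or fewer).

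Between the libraries, most of these genes stood close together in mature neuron-like nuclei. None of the REEP, G protein, receptor regulation or endoplasmic reticulum genes measured (5, 7, 10 and 16) was 1.5-fold apart, with medians from -0.09 to 0.05 against 0.07 over all genes tested. REEP1 had 210 and 213 CPM and GNAL 698 and 726 CPM in the knockout and wild type libraries. In the transduction list 3 of 9 measured genes were at least 1.5-fold lower in the knockout library and none higher, beside 9.12% lower and 12.0% higher of all genes: CNGA2 at 34.7 against 68.9 CPM, CNGA4 at 38.4 against 69.8 CPM and STOML3 at 362 against 701 CPM. The first 2 encode subunits of the odorant-gated channel, and these genes were named after their values were seen. PDE1C, at 0.26, and SLC12A2, at 0.53, stood higher in the knockout library. In the heat shock list HSPA8, the constitutive heat shock cognate protein, was the 1 of 7 genes past the fold, at 73.5 against 122 CPM (-0.73).

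The genes most like each member were taken over 44 clusters of single libraries with at least 20 nuclei, by Pearson's r of log2(CPM + 20) among 11837 genes with at least 200 UMIs. The clusters share libraries and differ in depth, so r is a description. For RTP1 they were ACTA1 (0.846), ACBD7 (0.821), STOML3 (0.798), STMN3 (0.795) and NSG1 (0.789). For RTP2 they were an unnamed gene listed as ENSSSCG00000007899 (0.842), ATF5 (0.831), APBB1 (0.826), an unnamed gene listed as ENSSSCG00000038476 (0.824) and CDR2L (0.818). For RIC8B they were LRGUK (0.936), EML6 (0.930), DNAAF4 (0.926), TTLL11 (0.922) and PPP1R42 (0.921). Between the 3 members r was 0.635 for RTP1 and RTP2, 0.643 for RTP2 and RIC8B and 0.400 for RTP1 and RIC8B. The 5 genes listed are the highest by choice, so a member outside them has a lower r by construction. Among all genes compared, RTP2 ranked 79 and RIC8B 818 for RTP1. For RTP2, RIC8B ranked 290 and RTP1 311. For RIC8B, RTP2 ranked 691 and RTP1 1625. With the shallow unnamed clusters left out (41 clusters), ACTA1 (0.733) and ACBD7 (0.716) were still among the 5 for RTP1 and STOML3 was not, the 5 for RTP2 were all others, and 4 of the 5 for RIC8B were still listed.

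The place of the genes bears on how far their reads are their own. In the RefSeq annotation of Sscrofa11.1, which may not be the build of the deposited tables, RTP1 overlaps MASP1, a complement protease gene, RIC8B overlaps an uncharacterised gene, LOC102157854, and RTP2 overlaps none. RTP1 and RTP2 are near neighbours, with RTP4, SST and 4 long noncoding RNA genes between them. MASP1 had 12.1 CPM (9.09 to 15.9, 53 UMIs) in wild type and 6.74 CPM (4.12 to 10.4, 20 UMIs) in knockout mature neuron-like nuclei, and 7.34 and 6.95 CPM in immature ones. Its intervals of level overlapped between the libraries in mature neurons and between the stages in each library. No interval was taken for its ratio, as was done for RTP1, so this overlap does not show equal levels. In mature neuron-like nuclei MASP1 was lower in the knockout library, as was RTP1 (24.9 against 40.3 CPM). The part of MASP1 in that RTP1 difference was not tested. Over all nuclei MASP1 had 6.66 CPM (5.49 to 7.995) in wild type and 3.50 CPM (2.62 to 4.58) in knockout nuclei, with no overlap. The sources used here do not state whether the counting used the strand. Whether some RTP1 UMIs came from MASP1 reads could not be checked, and the RTP1 values carry that uncertainty.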

How the data were processed

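Nuclei of 2 libraries, 1 per genotype label, were analysed. The authors deposited 1 table per library of raw UMI counts for 25880 genes (4715 wild type barcodes holding 18731495 UMIs and 6054 knockout barcodes holding 16623086, none under 500 UMIs; 8 barcode sequences occur in both). Cell Ranger, Seurat 4.0 and R 4.0.2 are named by the submitters' processing notes. The sources used here do not give the aligner, build, annotation or use of strand.

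Nuclei under 200 genes were dropped. Scrublet marked 1 doublet per library, too few to be a working call, and the highest scores were removed instead at 0.8% per 1000 nuclei (178 and 293 nuclei). Normalised to 10000 UMIs and log transformed, 2000 variable genes (without the 3 members, CFTR and mitochondrial genes), 30 components and 15 neighbours gave Leiden clusters at resolution 1, without integration (scanpy 1.11.5, python-igraph 0.11.9, Python 3.11.15). A cluster was named from at least 3 fixed markers that passed in it, more than for any other type. A marker passed at 1 log2 unit above the median cluster with 20 CPM added, if seen in 5% of nuclei. Its level also had to reach 50% of the highest among clusters that were not shallow. Shallow clusters, under 0.333 of their libraries' median depth, stayed unnamed whatever their markers. Summed UMIs were given as CPM with Poisson, shares with Clopper-Pearson and ratios with conditional binomial 95% intervals, which leave out PCR and capture error. The ratio intervals were run on Poisson counts simulated with known folds, which is the model they assume. The simulation had no spread between nuclei or libraries, so it cannot test for that. TMM scaling used edgeR 4.0.16.

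Named genes are the members, the 3 genes with the most UMIs of each list, the REEP, RTP and RIC8 relatives, and the 5 genes most like each member; any other is said to be chosen after its value was seen. Members and lists were chosen with earlier results of these data known. Symbols not found (RTP3, RTP4, ANO2, OMP, HSP90B1, XBP1 and HSP90AB1) are not analysed here, and no sequence was used.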

Additional observations from a re-analysis of the deposited data

How the results depend on the processing

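No paired analysis was possible because each genotype had 1 library, and leaving out a replicate was not run. Of 197 alternative values for 26 results, 146 stayed within the interval of the reported value (or near it, for counts and correlations), and 51 moved outside it. No reported value whose own interval excluded 0 changed sign, but the RIC8B ratio of the libraries in immature nuclei, reported as 0.05 with an interval that includes 0, was below 0 with intervals apart from 0 under several clusterings and filters. For the 51 the cause was not tested. Alternatives by cluster, by nuclei of 2500 to 5000 UMIs, with shallow clusters and by wild type cluster shares were chosen after seeing the data.

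The RIC8B log2 ratio of the libraries in mature neuron-like nuclei was -0.20 with size factors, -0.22 with TMM, -0.22 without doublet removal, -0.22 at 500 genes, -0.21 at resolution 0.5, -0.23 at resolution 2, -0.21 with the members among the clustering genes, -0.29 with each library clustered on its own, -0.20 thinned to 1000 UMIs, -0.054 in cluster 1, -0.29 with the shallow clusters and -0.062 at 2500 to 5000 UMIs. In immature nuclei it was -0.23 without doublet removal, -0.27 at 500 genes, -0.11 at 1000 UMIs, -0.25 and -0.30 at resolutions 0.5 and 2, -0.10 with the members in and -0.59 clustered separately. Over all nuclei it was -0.38 with size factors, -0.38 with TMM, -0.20 thinned and -0.075 with wild type cluster shares. The RTP1 ratio was -0.28 in mature nuclei when thinned, -0.46 in immature nuclei clustered separately, and over all nuclei -0.22 with nuclei weighted equally and -0.29 thinned. The RTP2 ratio was -1.01 and -0.72 in mature clusters 0 and 1, -1.74 in immature nuclei when thinned, and over all nuclei -0.28 weighted equally and -1.02 thinned.

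For mature over immature nuclei, the wild type RTP1 ratio was 0.79 without doublet removal, 0.68 clustered separately and 0.57 at 2500 to 5000 UMIs, and the RTP2 ratio 0.016 thinned. The wild type RIC8B ratio was 2.20 with size factors, 2.23 with TMM, 2.26 weighted equally, 1.87 without doublet removal, 1.86 at 500 genes, 1.95 at 1000 UMIs, 1.82 and 1.80 at resolutions 0.5 and 2, 1.96 with the members in, 1.70 clustered separately, 2.33 thinned and 2.41 at 2500 to 5000 UMIs, and the knockout ratio 2.04 thinned. Ordered by marker difference, the last over the first 3 bins of RIC8B gave 2.39 and 1.90. Depth limits RTP1 and RTP2, with 376 UMIs of RTP2 over both libraries.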
